A study of Mus musculus with 11 samples.

Results

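In tumors that carry 2 drugs at once, the effect of one may simply add to the effect of the other or may depart from that sum, and the departure was measured here for every mouse gene of A375 xenografts. For each gene the difference between COMBO and PLX4720 was set against the difference between bevacizumab and Vehicle. The contrast, (COMBO minus PLX4720) minus (bevacizumab minus Vehicle) on the log2 scale, is 0 where the 2 drug effects add, above 0 where COMBO lies above the sum and below 0 where it lies under it. All 10933 genes with a probe detected on at least 1 array entered, which is every gene tested in the series. Entry did not depend on the contrast. A375, a melanoma line of human origin that carries a BRAF mutation, was grown under the skin of CD1 athymic female mice injected at 6 weeks of age, and the arrays carry probes for mouse genes.

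COMBO mice (2 arrays) received both drugs. PLX4720 mice (3 arrays) received the BRAF inhibitor PLX4720 by gavage every day at 60 mg/kg, and bevacizumab mice (3 arrays) received that antibody to VEGF-A by intraperitoneal injection at 10 mg/kg 3 times a week. Vehicle mice (3 arrays) received the carrier alone. The labels give tumors of 150 to 200 mm3 at the start and 12 days of treatment, whereas the study's methods give a larger volume and a slightly longer course. The arrays are biological replicates of 1 cell line, and athymic mice lack most T cells. The RNA of a xenograft holds human as well as mouse transcripts, and how far each mouse probe responds to human RNA was not tested.

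VEGF-A is secreted by tumor and stromal cells and binds VEGFR2 on endothelium, where it keeps vessels growing and leaky. Bevacizumab captures human VEGF-A and binds the mouse protein poorly. Mutant BRAF drives the MAP kinases MEK and ERK without an outside signal, and inhibitors of the PLX4720 class block that signal in mutant tumor cells while host cells have normal BRAF. Host fibroblasts answer growth factors such as TGF-beta and PDGF by depositing collagen, proteoglycans and elastic fibers, and macrophages and vessels make up much of the remaining stroma.

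Endothelial, fibroblast and macrophage markers were present, with 4 of 5, 4 of 5 and 4 of 4 tested markers detected on all 11 arrays. The COMBO arrays detected 11536 and 12315 probes and the PLX4720 arrays 13049 to 15130, against 10115 to 11797 for bevacizumab and Vehicle. The mean log2 signal of 18 skeletal muscle genes was 9.59 and 6.65 in COMBO, 11.88, 5.18 and 7.97 in PLX4720, 5.41, 9.12 and 5.23 in bevacizumab, and 5.29, 6.53 and 5.24 in Vehicle (in each group in the order of the replicates). Muscle signal was thus high on PLX4720 replicate 1, COMBO replicate 1 and bevacizumab replicate 2, and counts of calls per list moved with these and with other single arrays left out, with the main changes given beside the lists. In tumor RNA, fewer cells of a type and less RNA per cell cannot be told apart.

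Departures from additivity were common at a lenient threshold and rare at a strict one. At an adjusted p under 0.05 (limma, Benjamini-Hochberg over all genes) 1 gene lay above additivity, 0.00915% of those tested, and 0 below, while 30 passed at an adjusted p under 0.1, 27 of them above (0.247%) and 3 below (0.0274%). At the threshold of the study's methods, a contrast of 1 or more in size and an unadjusted p below 0.01, 296 genes lay above (2.71%) and 180 below (1.65%). At an unadjusted p under 0.05 the counts were 789 above (7.22%) and 746 below (6.82%). Of all 10933 genes, 4931 had a contrast above 0 and 6002 below, the background for the counts of list members. The median contrast of all genes was -0.08, and it was 0.09 when the arrays were scaled to 6 housekeeping genes, which made the counts 1029 above and 598 below at an unadjusted p under 0.05. At the methods' threshold the counts above and below were 296 and 145 with that scaling, 203 and 62 without background correction and 296 and 279 with median scaling. The median 95% interval reached 0.97 to either side of a contrast, so departures of less than about 2-fold were seldom detectable with 2 COMBO arrays.

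The genes above and below additivity had opposite profiles, which choosing them by this same contrast favors in advance. Of the 296 above at the methods' threshold, 274 had their lowest group mean in PLX4720 and 238 their highest in Vehicle. Their median differences were 1.18 for COMBO minus PLX4720, -0.60 for bevacizumab minus Vehicle, -1.47 for PLX4720 minus Vehicle and -0.43 for COMBO minus Vehicle. In words, these genes were low with PLX4720 alone, and COMBO tumors lay nearer to Vehicle tumors. Of the 180 below, 149 had their highest mean in PLX4720, and the same medians were -0.99, 0.53, 0.98 and -0.01. The choice treats PLX4720 and bevacizumab alike. Bevacizumab held the lowest mean in 22 of the 296 and the highest in 30 of the 180, so PLX4720 was more often the extreme group. PLX4720 arrays also had the most probes detected. Among all genes, which were not chosen by the contrast, PLX4720 held the lowest mean in 26.4% and the highest in 39.4%. A group in which no array detected the gene gives only a limit: by this, 21 contrasts above and 63 below are bounds that the true departure reaches or passes, and 5 above and 16 below have no bound. All 296 and all 180 kept their sign when the contrast was taken on the linear scale.

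Gpat3 encodes an enzyme that acylates glycerol phosphate, the first step of triglyceride synthesis, and was the gene that passed at an adjusted p under 0.05. Its log2 signal was 8.28 and 8.19 in COMBO, 5.48, 5.83 and 5.81 in PLX4720, 7.92, 8.11 and 8.0 in bevacizumab, and 8.34, 8.92 and 9.0 in Vehicle. The PLX4720 arrays were far below all others, and the COMBO arrays lay between the bevacizumab and the Vehicle arrays. The contrast was 3.28 (standard error 0.35, 95% interval 2.51 to 4.05, adjusted p = 0.00938), from differences of 2.53 for COMBO minus PLX4720 and -0.74 for bevacizumab minus Vehicle. It lay between 3.15 and 3.48 with each array left out in turn. The call itself was less stable than the contrast. No gene, and so not Gpat3, passed an adjusted p under 0.05 without bevacizumab replicate 3 or without Vehicle replicate 2. The same held with housekeeping scaling and with the mean of probes. A dimmer probe of Gpat3, detected on 3 arrays, had a contrast of -0.27 (unadjusted p = 0.61).

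**Figure D1:**
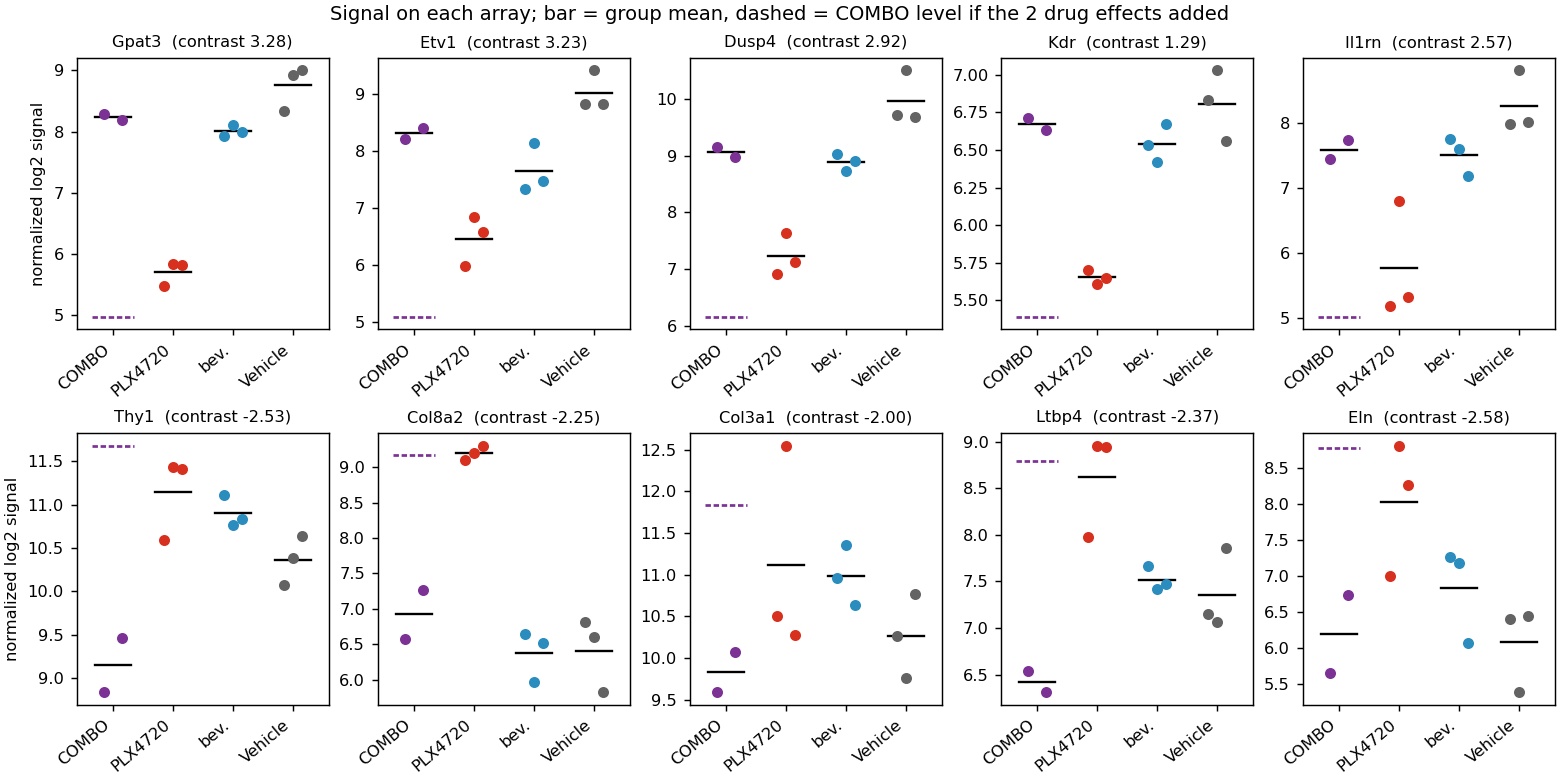
Each panel plots the normalized log2 signal of 1 gene on the 11 arrays by group, with a bar at each group mean and a dashed line at the COMBO level that would follow if the 2 drug effects added. In the upper panels (Gpat3, Etv1, Dusp4, Kdr, Il1rn) the COMBO arrays sit above the dashed line, and in the lower panels (Thy1, Col8a2, Col3a1, Ltbp4, Eln) they sit below it.

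The promoters of 4 genes on which the results turn are printed as the 250 bases before the annotated start (RefSeq, GRCm38.p6, 5′ to 3′ on the gene's strand), 2 for genes above and 2 for collagens below additivity. Gpat3 is at chr5:100845979-100846228 (plus strand), Kdr at chr5:75978456-75978705 (minus), Col3a1 at chr1:45311288-45311537 (plus) and Col8a2 at chr4:126286544-126286793 (plus). Capitals mark every match on either strand to the CCAAT box (CCAAT), the TATA box (TATAAA), the GC box (GGGCGG), the SMAD motif (CAGACA), the ETS core (CCGGAA) or the CArG box by name.
Gpat3: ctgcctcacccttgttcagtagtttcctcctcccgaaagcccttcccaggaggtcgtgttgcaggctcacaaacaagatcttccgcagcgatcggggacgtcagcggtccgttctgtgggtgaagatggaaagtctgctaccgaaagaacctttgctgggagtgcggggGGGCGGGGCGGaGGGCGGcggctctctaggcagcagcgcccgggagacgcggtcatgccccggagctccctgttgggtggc
Kdr: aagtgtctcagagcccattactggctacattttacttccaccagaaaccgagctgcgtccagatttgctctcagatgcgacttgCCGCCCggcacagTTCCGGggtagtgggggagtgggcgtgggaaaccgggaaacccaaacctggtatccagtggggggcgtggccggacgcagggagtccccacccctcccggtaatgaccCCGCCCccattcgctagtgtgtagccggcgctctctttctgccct
Col3a1: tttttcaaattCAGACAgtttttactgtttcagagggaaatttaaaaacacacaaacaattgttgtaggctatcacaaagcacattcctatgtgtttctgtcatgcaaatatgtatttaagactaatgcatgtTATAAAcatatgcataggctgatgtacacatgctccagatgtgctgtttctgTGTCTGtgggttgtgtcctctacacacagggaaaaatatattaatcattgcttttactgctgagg
Col8a2: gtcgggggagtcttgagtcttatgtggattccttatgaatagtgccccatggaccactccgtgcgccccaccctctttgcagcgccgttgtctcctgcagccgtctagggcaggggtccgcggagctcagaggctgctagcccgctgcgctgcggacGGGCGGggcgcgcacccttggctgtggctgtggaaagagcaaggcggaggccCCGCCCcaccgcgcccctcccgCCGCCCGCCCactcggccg
Gpat3 held 3 matches to the GC box (2 of them overlapping), Kdr 2 and Col8a2 4 (2 of them overlapping), and Col3a1 none, while Col3a1 held 1 TATAAA and 2 CAGACA. Kdr also held 1 CCGGAA. The GC box stood in 60.2% of the 8803 tested genes with a promoter in the table and in 32.7% of all 32851 promoters. CAGACA stood in 16% of the tested genes, in 17.1% of all promoters and in 4 of 10 collagens of the list described below. CCGGAA stood in 22.8% of the tested genes, in 12% of all promoters, in 10 of 28 splicing factors described below and in 0 of 10 collagens. CAGACA stood in 1 of 28 splicing factors. The GC box stood in 8 of 10 collagens and 22 of 28 splicing factors, and the CCAAT box in 4 of 10 and 17 of 28. The TATA box stood in 1 of 10 and 3 of 28, and the CArG box in 0 of each. The TATA box stood in 9.42% of the tested genes and 12.4% of all promoters, the CCAAT box in 40.1% and 33.8%, and the CArG box in 1.59% and 1.47%. These matches describe letters and not binding.

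Etv1 and Dusp4 are targets and regulators of ERK signaling, a transcription factor of the ETS family and a phosphatase that switches off MAP kinases. Etv1 had 8.21 and 8.40 in COMBO, 5.97, 6.83 and 6.57 in PLX4720, 7.32, 8.13 and 7.46 in bevacizumab, and 8.82, 9.41 and 8.82 in Vehicle (contrast 3.23, standard error 0.45, adjusted p = 0.0507). Dusp4 had 9.16 and 8.98 in COMBO, 6.92, 7.64 and 7.13 in PLX4720, 9.04, 8.74 and 8.91 in bevacizumab, and 9.73, 10.51 and 9.69 in Vehicle (contrast 2.92, standard error 0.42, adjusted p = 0.0507). For both genes every COMBO array lay above every PLX4720 array, and both missed the adjusted threshold narrowly. A second Etv1 probe gave 2.52 (unadjusted p = 0.00039) and another 0.05, whereas the 3 other Dusp4 probes gave -0.11, -0.25 and -0.37. The remaining ERK feedback and immediate early genes did not share this departure: of 27 tested, 2 lay above at an unadjusted p under 0.05 (these 2) and 2 below, with a median of -0.04. Below were Klf4 (-2.13, a bound, since no Vehicle array detected it, with another probe at -0.46) and Klf2 (-0.90), transcription factors of vascular and epithelial cells. Without COMBO replicate 1 these counts were 4 above and 0 below, and without the muscle arrays 3 and 0.

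The other genes above additivity with the smallest p included Foxc1, a forkhead factor of mesenchyme and vessels (12.03 and 11.97 in COMBO, 10.57, 10.62 and 10.31 in PLX4720, 11.41, 11.50 and 11.55 in bevacizumab, 11.99, 12.48 and 12.07 in Vehicle). Its contrast was 2.20 (standard error 0.33, adjusted p = 0.0507), and the PLX4720 arrays again formed the low group. Minpp1 (3.76), the SET domain protein Setd5 (3.58), the Golgi GTPase Rab6a (3.31), Slc35f2 (2.86), Armc8 (2.85), Shcbp1 (2.81), the casein kinase subunit Csnk2a1 (2.64) and Mctp2 (2.24) completed this set, with adjusted p between 0.0507 and 0.0517. All of them passed an unadjusted p under 0.05 with each array left out. Other probes did not always follow: Rab6a had 3 others at 2.71, 0.33 and 0.46, Armc8 2 at 0.56 and 0.50, Minpp1 2 at -0.51 and 1.11, and Csnk2a1 1 at -0.16.

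RNA-binding proteins that package pre-mRNA and choose splice sites, the hnRNP and SR families, stood most often above additivity among the lists described. Of 29 tested, 22 had a contrast above 0, 10 of them at an unadjusted p under 0.05, against 0 below, and the median was 0.55 where all genes had -0.08. No member passed an adjusted p under 0.05 (smallest 0.173). Hnrnpk, which binds C-rich RNA, had 12.88 and 12.72 in COMBO, 6.04, 11.26 and 8.06 in PLX4720, 11.81, 12.70 and 12.36 in bevacizumab, and 12.76, 13.56 and 13.25 in Vehicle (contrast 5.25, standard error 1.38). Hnrnpa2b1 had 13.86 and 13.70 in COMBO, 7.02, 12.90 and 8.27 in PLX4720, 12.56, 14.30 and 13.69 in bevacizumab, and 14.06, 14.27 and 14.28 in Vehicle (contrast 5.06, standard error 1.64). PLX4720 replicates 1 and 3 were far lower than replicate 2, so the spread within PLX4720 exceeded that of any other group for these genes. Hnrnpa0 (3.26, with a second probe detected on all arrays at -0.071) and Hnrnpf (2.86) lay above as well. The 40 other detected probes of the list had a median of 0.50, with 28 above 0 and 12 below. They differed within genes: Hnrnpk had 1.53, 0.83 and 0.49, Hnrnph1, chosen after its values were seen, had 3.78, 3.38, 2.40 and 1.11 beside 1.97 on the used probe, and Hnrnpa2b1 had -0.11 and -0.54. The count above was between 7 and 11 with each array left out and 5 without the 3 arrays of high muscle signal. With the second-brightest probes it was 3, against 1 below.

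**Figure D2:**
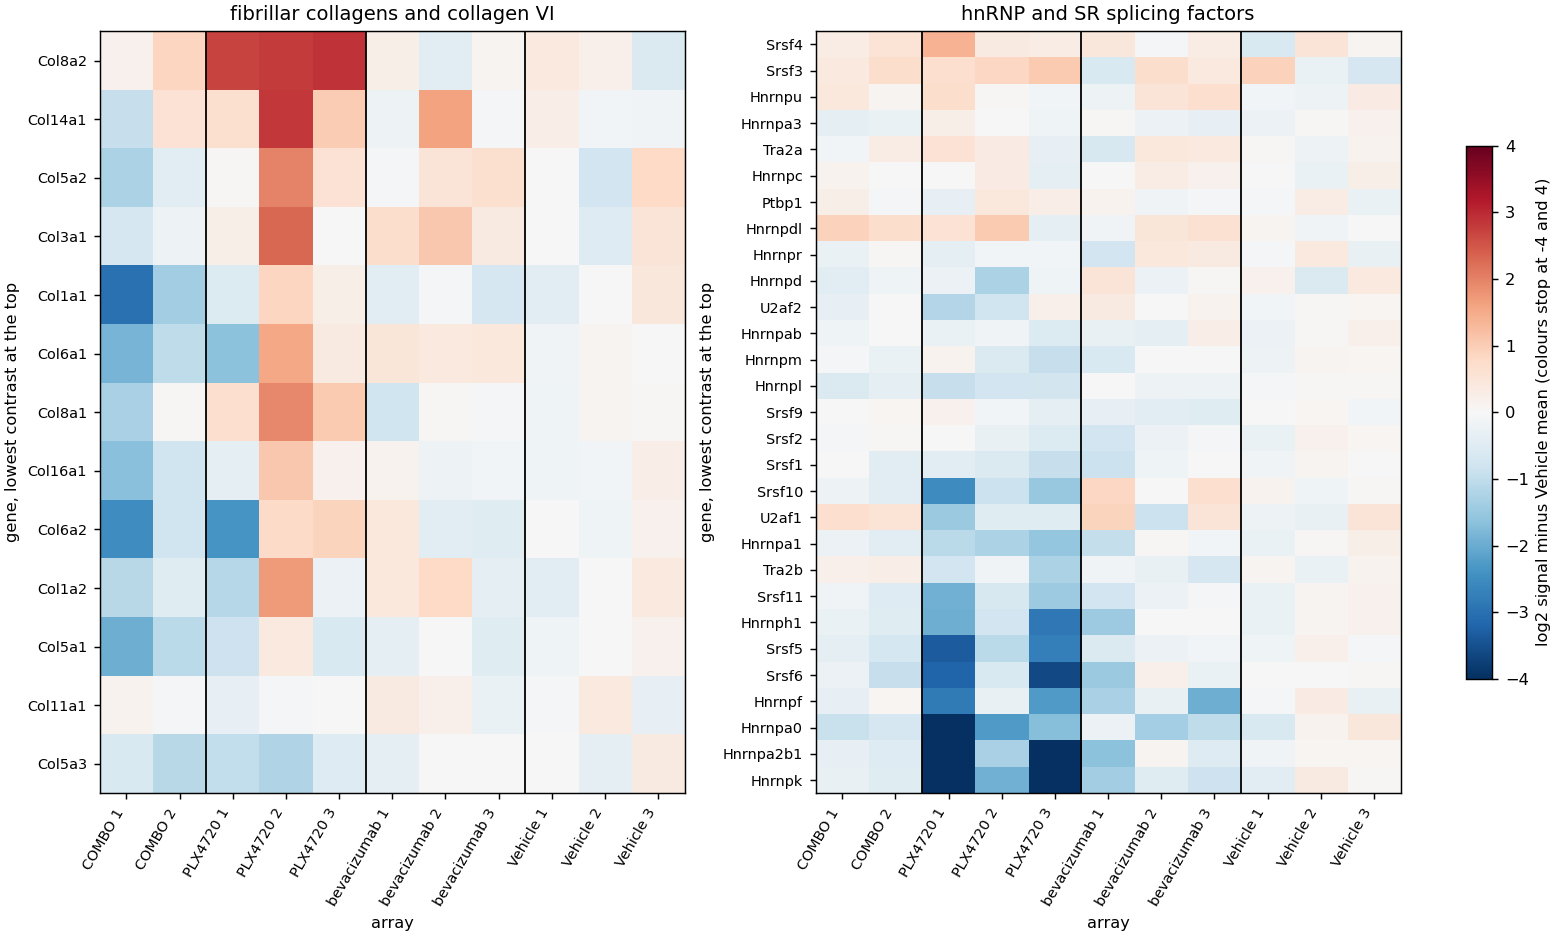
Heat maps of the log2 signal of each gene on each array minus its Vehicle mean, for the collagen list (left, 13 genes) and the splicing factor list (right, 29 genes), genes sorted by contrast with the lowest at the top and arrays in columns. Collagens are high on PLX4720 replicate 2 and low on COMBO replicate 1, and the lower rows of the splicing factors are low on PLX4720 replicates 1 and 3.

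Translation factors departed in both directions. Of 27 tested, 6 lay above and 3 below at an unadjusted p under 0.05, with a median of -0.10. Eef2, which moves the ribosome along the message, had 12.53 and 12.55 in COMBO, 6.69, 11.39 and 8.05 in PLX4720, 13.31, 12.95 and 12.39 in bevacizumab, and 13.26, 14.11 and 13.19 in Vehicle (contrast 4.47, standard error 1.29). The same PLX4720 arrays were low as for Hnrnpk, and 2 other Eef2 probes gave 3.65 and 2.04. The initiation factors Eif4b (2.39, adjusted p = 0.109) and Eif4g2 (2.46) and the elongation factor Eif5a (3.31) lay above too. The second-brightest Eif4b probe gave -0.60, the other Eif4g2 probes 0.67 and -0.42, and the other Eif5a probes 3.06 and -0.058. Without the muscle arrays the counts were 4 above and 2 below, and the second-brightest probes gave 4 and 1. Structural proteins of the ribosome stood on the other side. Of 29 cytosolic ribosomal proteins 23 had a contrast under 0, 7 of them at an unadjusted p under 0.05 against 0 above, with a median of -0.46. Rpl38 (-1.06), Rplp0 (-1.10), Rpl19 (-0.96) and Rplp2 (-0.93) were among them, and Rpl38 had 13.44 and 13.55 in COMBO, 14.05, 14.09 and 14.50 in PLX4720, 13.86, 13.61 and 13.49 in bevacizumab, and 13.45, 13.19 and 13.29 in Vehicle. The Rpl38 mean stood 0.18 above Vehicle in COMBO, 0.90 in PLX4720 and 0.34 in bevacizumab, and a second Rpl38 probe gave -0.72. The count of ribosomal proteins below was 2 without the muscle arrays, 3 without COMBO replicate 1, 4 without bevacizumab replicate 2, Vehicle replicate 2 or Vehicle replicate 3, and 0 with the second-brightest probes. Subunits of the mitochondrial respiratory chain had the same sign, with 29 of 36 under 0 (6002 of 10933 over all genes) and a median of -0.44. At an unadjusted p under 0.05, 3 of the 36 lay below against 0 above, a share near the 6.82% of all genes. Atp5o of the ATP synthase stood at -1.14, Atp5c1 at -0.97 and Cox6c of cytochrome oxidase at -0.91, with a second Atp5o probe at -0.47. Their count below was 1 without COMBO replicate 2, PLX4720 replicate 1 or Vehicle replicate 2 and with the second-brightest probes, and 5 without PLX4720 replicate 2 or bevacizumab replicate 2.

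Collagens formed the clearest group below additivity. Of 13 tested in the list of fibrillar collagens and collagen VI, which also holds collagens VIII, XIV and XVI, 11 had a contrast under 0, and 8 did so at an unadjusted p under 0.05 against 0 above. The list median was -1.57, and the smallest adjusted p was 0.106. The median difference was -1.52 for COMBO minus PLX4720 and -0.04 for bevacizumab minus Vehicle. Col8a2, a short-chain collagen, had 6.57 and 7.27 in COMBO, 9.10, 9.20 and 9.31 in PLX4720, 6.64, 5.97 and 6.52 in bevacizumab, and 6.81, 6.60 and 5.82 in Vehicle. The PLX4720 arrays stood apart from all others, and COMBO overlapped bevacizumab and Vehicle (contrast -2.25, standard error 0.46, adjusted p = 0.106; second probe -1.07).

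Col3a1, a fibrillar collagen of loose connective tissue, had 9.59 and 10.07 in COMBO, 10.51, 12.55 and 10.28 in PLX4720, 10.96, 11.36 and 10.64 in bevacizumab, and 10.27, 9.76 and 10.77 in Vehicle (contrast -2.00, standard error 0.76). Both COMBO arrays lay below all PLX4720 and bevacizumab arrays and overlapped Vehicle. A second Col3a1 probe, detected on 6 arrays, gave 0.57 (unadjusted p = 0.66). Col3a1 lost its unadjusted p under 0.05 without COMBO replicate 1, bevacizumab replicate 2 or Vehicle replicate 2. Col1a1, the main chain of collagen I, had 8.29 and 9.86 in COMBO, 10.73, 12.11 and 11.49 in PLX4720, 10.84, 11.22 and 10.58 in bevacizumab, and 10.81, 11.27 and 11.71 in Vehicle (contrast -1.99, standard error 0.66). Here COMBO was below every other array, by 2.19 under the Vehicle mean, and the unadjusted p was above 0.05 without COMBO replicate 1. Col5a2 (-2.07, second probe -0.71) and Col14a1 (-2.12, second probe -0.72), which regulate fibril assembly, departed by similar amounts. Of the 13, 8 had both COMBO arrays below all PLX4720 arrays, as had 10 of 15 basement membrane genes and 8 of 27 endothelial markers. That count compares COMBO with PLX4720 only and is not the contrast. Its share over all genes was not counted, so it cannot be read as particular to these lists. PLX4720 held the highest mean in 39.4% of all genes.

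COMBO replicate 1 carried much of this. Without it 1 collagen had an unadjusted p under 0.05 and the median was -1.05. Without COMBO replicate 2 there were 9 and -2.24, without PLX4720 replicate 1 there were 11 and -2.30, and without the 3 arrays of high muscle signal there were 5 and -1.38. Without PLX4720 replicate 2 or Vehicle replicate 2 there were 5 as well. The list median was below 0 in each. The 3 arrays of high muscle signal include COMBO replicate 1, so that setting leaves 1 COMBO array. With muscle signal as a covariate on all 11 arrays there were 9 collagens below and the median was -1.72. The second-brightest probes gave 1 call. Of 9 other detected collagen probes 7 had a contrast under 0, with a median of -0.72, and 1 passed an unadjusted p under 0.05.

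Proteoglycans and elastic fiber genes followed the collagens. Of 19 tested 13 had a contrast under 0, 7 of them at an unadjusted p under 0.05 against 0 above, with a median of -1.31. Elastin (Eln) had 5.66 and 6.74 in COMBO, 7.0, 8.81 and 8.26 in PLX4720, 7.26, 7.18 and 6.07 in bevacizumab, and 6.40, 5.39 and 6.45 in Vehicle (contrast -2.58, standard error 0.75). Ltbp4, which binds latent TGF-beta and guides elastic fiber assembly, had 6.54 and 6.31 in COMBO, 7.98, 8.96 and 8.94 in PLX4720, 7.67, 7.42 and 7.47 in bevacizumab, and 7.15, 7.06 and 7.86 in Vehicle (contrast -2.37, standard error 0.46, adjusted p = 0.0957). For both genes COMBO lay below all PLX4720 arrays, and for Ltbp4 it lay below every array of the other groups. Other Ltbp4 probes gave -2.34 and 1.01. The microfibril protein Mfap4 (-2.51) and the small proteoglycan osteoglycin (Ogn, -2.80, a bound since no Vehicle array detected it, other probes -0.71 and -0.48) were the further named members. Without COMBO replicate 1 the count was 4 and the median -0.74. The second-brightest probes alone gave 1 below, 2 above and a median of 0.03.

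**Figure D3:**
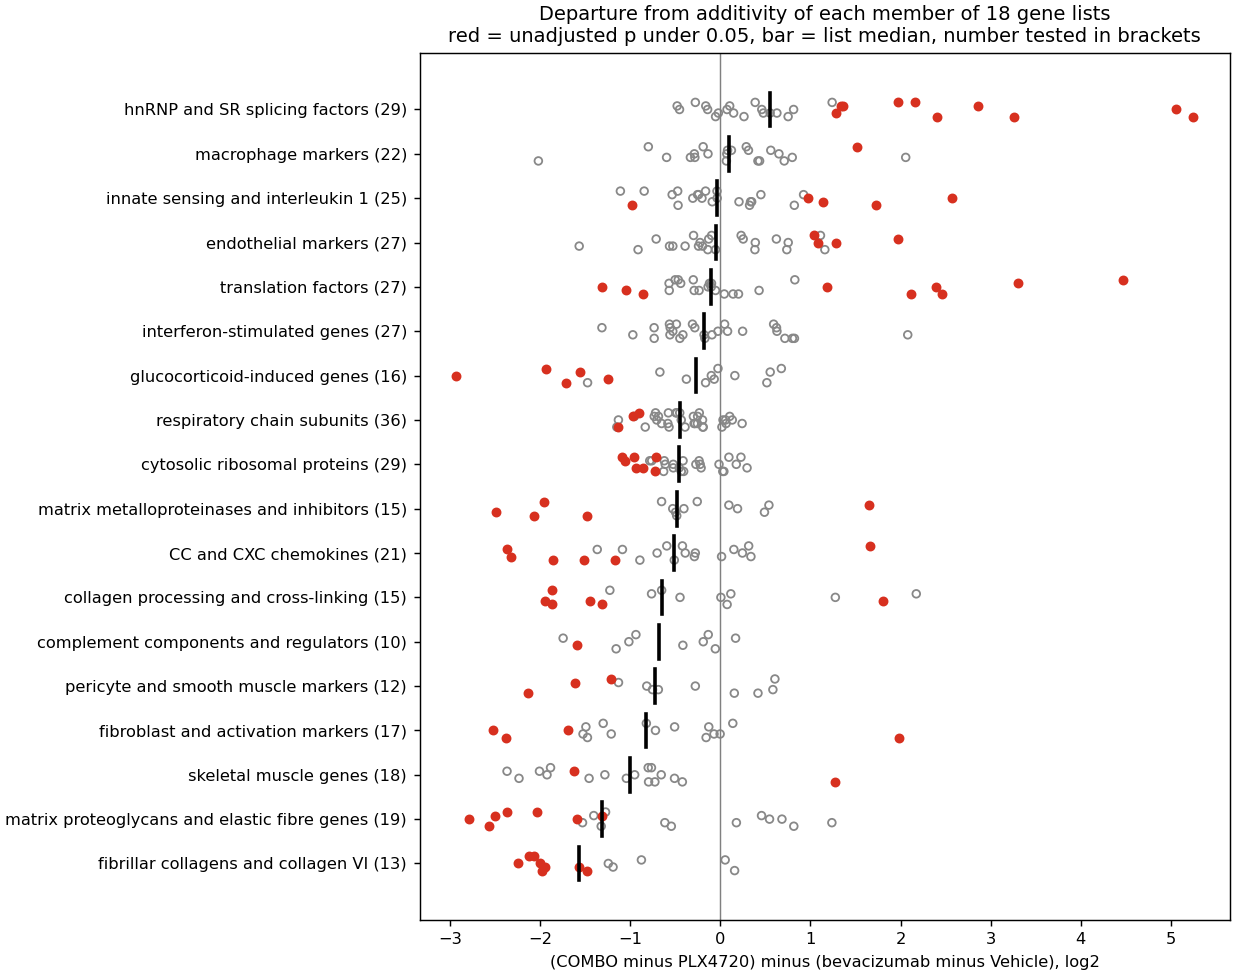
Each point is the contrast of 1 gene, (COMBO minus PLX4720) minus (bevacizumab minus Vehicle) in log2 units, for 18 gene lists sorted by their medians (black bars), with red points at an unadjusted p under 0.05 and the number of genes tested in brackets. Collagens and matrix proteoglycans lie mostly to the left of 0 and splicing factors mostly to the right.

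Enzymes that process and cross-link collagen departed with less unity. Of 15 tested, 5 lay below at an unadjusted p under 0.05 and 1 above (median -0.65). Pcolce, which speeds removal of the procollagen end (-1.95), the lysyl hydroxylase Plod2 (-1.88, second probe -1.56) and lysyl oxidase (Lox, -1.87) lay below. Lox had 7.79 and 8.82 in COMBO, 9.79, 10.48 and 10.10 in PLX4720, 9.59, 11.24 and 10.21 in bevacizumab, and 9.99, 9.89 and 11 in Vehicle, so that only COMBO was low, and its unadjusted p was above 0.05 without COMBO replicate 1. P4ha1, a prolyl hydroxylase that hypoxia induces, lay above (1.81, standard error 0.47, unadjusted p = 0.0022), with PLX4720 low at 7.24, 8.02 and 7.12 against 8.88 and 8.84 in COMBO, and a dimmer P4ha1 probe gave 0.02. The count below was 0 without COMBO replicate 1, 2 without PLX4720 replicate 2, Vehicle replicate 1 or the muscle arrays, and 3 without bevacizumab replicate 2, Vehicle replicate 2 or Vehicle replicate 3. The second-brightest probes gave 1 below and 0 above. Among basement membrane genes 2 of 15 lay below at that threshold, the vessel-wall collagen Col15a1 (-1.66) and nidogen (Nid1, -1.48, second probe -0.29), against 0 above. That count ran between 0 (without COMBO replicate 1) and 3 with single arrays left out and was 0 without the muscle arrays.

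Fibroblast markers were mixed. Of 17 tested 15 had a contrast under 0, but 3 passed an unadjusted p under 0.05 below and 1 above, with a median of -0.82. Thy1, a surface glycoprotein of fibroblasts, had 8.84 and 9.47 in COMBO, 10.59, 11.43 and 11.41 in PLX4720, 11.11, 10.77 and 10.83 in bevacizumab, and 10.08, 10.38 and 10.64 in Vehicle. Each drug alone had a higher Thy1 mean than Vehicle and COMBO a lower one, with no overlap between COMBO and any other group (contrast -2.53, standard error 0.44, adjusted p = 0.0701). The PDGF receptor Pdgfra stood at -2.38 (second probe 0.44) and the matrix protein Fbln1 at -1.70, whose 4 other probes lay between -1.98 and -1.03. Prrx1, a transcription factor of mesenchyme, went against the list (8.31 and 9.01 in COMBO, 7.79, 8.05 and 7.82 in PLX4720, 8.28, 7.98 and 8.42 in bevacizumab, 9.42, 9.53 and 9.36 in Vehicle; contrast 1.98, standard error 0.36, adjusted p = 0.0727). The Prrx1 mean of each treatment was below that of Vehicle, and its other probes gave 2.91, 1.88, 0.96 and -0.57, the last 2 on dim probes detected on 2 and 5 arrays. The count of fibroblast markers below was 1 without COMBO replicate 1 or bevacizumab replicate 2 and 5 without COMBO replicate 2 or PLX4720 replicate 1.

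Among markers of pericytes and smooth muscle 3 of 12 lay below at an unadjusted p under 0.05 against 0 above (median -0.72). Acta2, smooth muscle actin and a marker of activated fibroblasts, had 9.75 and 11.32 in COMBO, 11.29, 12.53 and 12.27 in PLX4720, 12.24, 12.43 and 12.88 in bevacizumab, and 12.22, 12.68 and 12.28 in Vehicle (contrast -1.61, standard error 0.62). COMBO replicate 1 was the lowest array and replicate 2 lay at the lowest PLX4720 array. The unadjusted p was above 0.05 without COMBO replicate 1, PLX4720 replicate 2 or bevacizumab replicate 3, and without each of these the list had 1 call below. One other Acta2 probe gave -1.72 (unadjusted p = 0.0074), and 2 gave 0.55 and 0.99. The PDGF receptor Pdgfrb (-2.13) and Tagln (-1.21) were not detected on either COMBO array, so that their contrasts are bounds. The second-brightest probes of the list had a median of 0.47 and 1 call below.

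Proteases of the matrix and their inhibitors had calls in both directions. Of 15 metalloproteinases and inhibitors 4 lay below at an unadjusted p under 0.05 and 1 above (median -0.49). The gelatinase Mmp2 had 9.86 and 10.99 in COMBO, 11.73, 12.77 and 11.72 in PLX4720, 11.12, 11.86 and 10.96 in bevacizumab, and 10.81, 10.97 and 10.91 in Vehicle (contrast -2.07, standard error 0.56, unadjusted p = 0.0030). COMBO lay on both sides of the Vehicle arrays while PLX4720 was above them all. The stromelysin Mmp3 stood at -2.49 (standard error 1.07), with other probes at -2.21 and -1.56, and Mmp23 at -1.96, while Adamts1, a protease that binds VEGF, stood at 1.65 (second probe -0.38). The count below was 2 without COMBO replicate 1, PLX4720 replicate 2, bevacizumab replicate 2, Vehicle replicate 1, Vehicle replicate 2 or the muscle arrays. Mmp9 had a contrast of -0.53 (95% interval -2.44 to 1.38). For Mmp10, not detected with PLX4720 or COMBO, no limit could be set.

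Vessel genes departed little as a group although their means were mostly below Vehicle in each treatment. Of 27 endothelial markers 24 had their highest mean in Vehicle and 19 their lowest in COMBO. Over all genes these shares were 25.6% and 22.5%. The median difference was -0.52 for COMBO minus PLX4720 and -0.62 for bevacizumab minus Vehicle, which left a median contrast of -0.05. At an unadjusted p under 0.05, 4 lay above and 0 below, and without PLX4720 replicate 1 the counts were 3 and 3. They were 2 and 2 without the muscle arrays, 2 and 0 without PLX4720 replicate 2, bevacizumab replicate 2, bevacizumab replicate 3 or Vehicle replicate 2, and 0 and 0 with the second-brightest probes. Kdr, the receptor VEGFR2, had 6.71 and 6.63 in COMBO, 5.70, 5.61 and 5.65 in PLX4720, 6.53, 6.42 and 6.67 in bevacizumab, and 6.83, 7.03 and 6.56 in Vehicle (contrast 1.29, standard error 0.31, unadjusted p = 0.0014, adjusted p = 0.138). The PLX4720 arrays lay below all others, and COMBO lay within the range of Vehicle. The adhesion protein Mmrn2 (1.09), the lymphatic receptor Flt4 (1.04, a bound since no bevacizumab array detected it) and Gpihbp1, which anchors lipoprotein lipase to capillaries (1.97), also lay above, and a second Gpihbp1 probe gave 0.43. Among tip cell, Notch and angiopoietin genes 0 of 25 lay above and 2 below, Cxcl12 (-1.42; other probes -0.40 and 0.49) and Angptl4 (-1.25), and with single arrays left out the count below ran between 0 (Vehicle replicate 1) and 6 (Vehicle replicate 3).

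**Figure D4:**
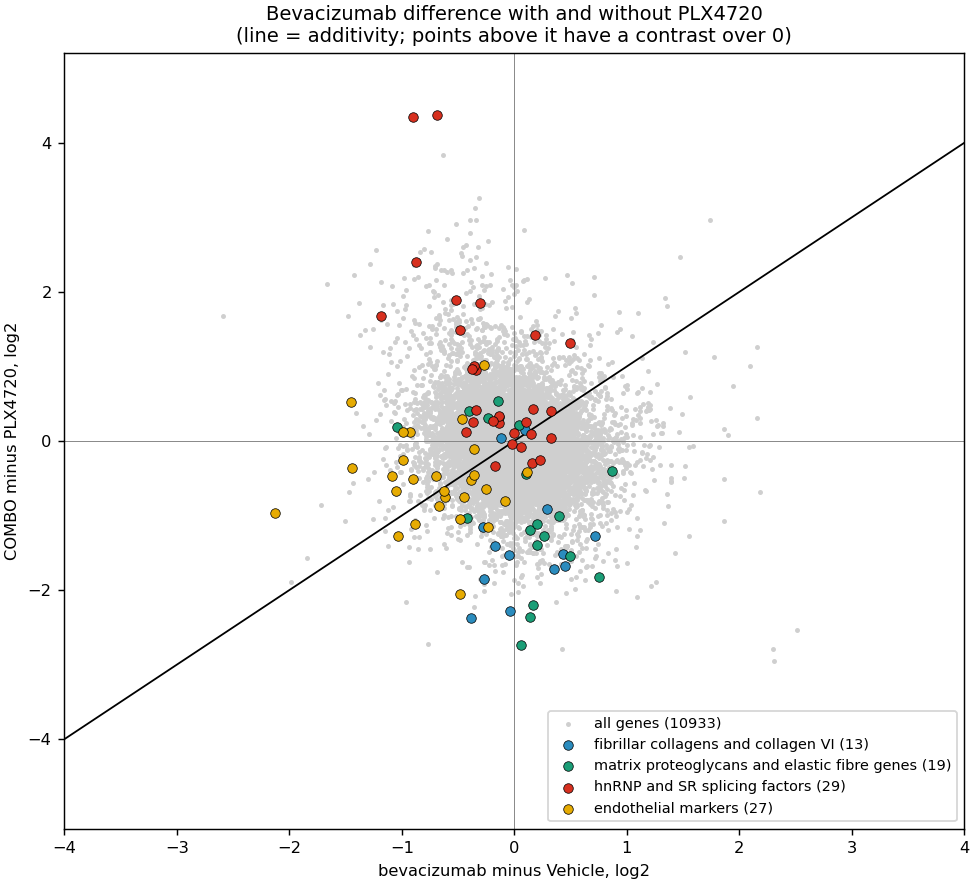
Each point is a gene, with bevacizumab minus Vehicle on the horizontal axis and COMBO minus PLX4720 on the vertical axis (log2), the black line marking additivity. Splicing factors reach above the line and matrix genes below it, and endothelial markers lie around it with both differences mostly negative.

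Genes of innate immunity departed in single members. Of 25 genes of innate sensing and interleukin 1, 4 lay above and 1 below at an unadjusted p under 0.05 (median -0.04). Il1rn, the antagonist of the interleukin 1 receptor, had 7.44 and 7.74 in COMBO, 5.18, 6.8 and 5.33 in PLX4720, 7.76, 7.60 and 7.18 in bevacizumab, and 7.99, 8.81 and 8.01 in Vehicle (contrast 2.57, standard error 0.60, unadjusted p = 0.0011). Il1rn was detected on 1 PLX4720 array and on all others, and its second probe gave 1.18 (unadjusted p = 0.066). Il18bp, which neutralizes interleukin 18, stood at 1.14, the RNA sensor Tlr8 at 1.73 and the endotoxin receptor Cd14 at 0.97, whereas Casp1, the protease that matures both cytokines, stood at -0.98. Without COMBO replicate 2 the list had 2 calls above and 0 below. Il1b itself had a contrast of 0.32 (95% interval -1.26 to 1.91), Il18 of -0.47 (-1.36 to 0.42; a second probe -0.09), Il6ra of -0.31 (-1.08 to 0.46; another Il6ra probe 1.72, unadjusted p = 0.0020), Irf2 of 0.82 (-0.07 to 1.71) and Tgfb1 of 1.04 (-1.43 to 3.52). Tgfbr2, a receptor for TGF-beta, stood at -1.02, and a dimmer Tgfbr2 probe went the other way at 1.56 (unadjusted p = 0.0042).

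Macrophage genes had 1 call. Lyz2, lysozyme, had 14.32 and 14.42 in COMBO, 12.30, 13.62 and 13.11 in PLX4720, 12.99, 13.68 and 12.63 in bevacizumab, and 13.58, 13.12 and 13.08 in Vehicle (contrast 1.52, standard error 0.53). It was the only one of 22 macrophage markers past an unadjusted p of 0.05, with 0 below, and COMBO was the highest group. A second Lyz2 probe detected on all 11 arrays gave 0.44 (unadjusted p = 0.30) and another, detected on 2, gave 0.47. The macrophage count above was 3 without COMBO replicate 1, PLX4720 replicate 3 or the muscle arrays, and 0 with the second-brightest probes. Arg1 encodes arginase, which marks macrophages in the alternative state, and had 10.06 and 10.32 in COMBO, 7.63, 8.93 and 7.58 in PLX4720, 11.75, 11.77 and 12.37 in bevacizumab, and 11.68, 12.01 and 11.97 in Vehicle. COMBO lay between PLX4720 and the other groups without overlap, the contrast was 2.07 (standard error 0.52, unadjusted p = 0.0018), and the second Arg1 probe gave 2.48. Il10, the other call of that list of 20, was detected on 1 array. Neutrophil genes included Csf3r above (1.05, second probe 0.53) and Lcn2 (-2.93) and Ltf (-1.20) below, the last pair as bounds, and without COMBO replicate 2 they had 0 calls in either direction. Of 10 complement genes 9 had a contrast under 0, with Serping1, the C1 inhibitor, at -1.59 and its second probe at -1.81. Serping1 was the 1 call of that list, which had 0 without COMBO replicate 1 or the muscle arrays, 4 without PLX4720 replicate 3 and 3 without bevacizumab replicate 3.

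Chemokines included 5 below and 1 above of 21 at an unadjusted p under 0.05 (median -0.51). Cxcl14, made by fibroblasts and epithelium, had 8.62 and 10.53 in COMBO, 10.51, 11.76 and 11.68 in PLX4720, 12.0, 10.89 and 10.86 in bevacizumab, and 11.05, 10.83 and 10.13 in Vehicle (contrast -2.32, standard error 0.77). A second Cxcl14 probe, also detected on all 11 arrays, gave -1.05 (unadjusted p = 0.17), and without COMBO replicate 1 the unadjusted p of the used probe was above 0.05. The count of chemokines below was 2 without COMBO replicate 2 or PLX4720 replicate 2, 3 without bevacizumab replicate 3, Vehicle replicate 1 or Vehicle replicate 3, and 2 with the second-brightest probes. The neutrophil attractant Cxcl1 stood at -2.37 and Cx3cl1 at -1.86, while Cx3cr1, the Cx3cl1 receptor of monocytes, stood at 1.66 (10.60 and 10.75 in COMBO, 10.95, 9.64 and 9.55 in PLX4720, 9.28, 9.01 and 9.54 in bevacizumab, 10.35, 10.39 and 10.19 in Vehicle). Klrd1, the NK cell receptor CD94, was detected on no Vehicle array and on all others (7.57 and 7.59 in COMBO, 7.38, 7.70 and 6.75 in PLX4720, 7.25, 7.47 and 7.45 in bevacizumab), so each treatment alone reached the COMBO level and the contrast of -1.85 is a bound. Interferon-stimulated genes had 0 calls in either direction of 27 in limma at an unadjusted p under 0.05, with median differences of 0.25 for COMBO minus PLX4720 and 0.26 for bevacizumab minus Vehicle. Across the alternatives they had up to 2 calls above and 3 below. MHC class II genes had 0 of 13 (up to 2 above and 3 below with single arrays left out), and H2-Aa was 10.98 on 1 COMBO array and 5.24 on the other. Tap1 (-1.20) and Psmb10 (-0.99, second probe -0.26) were the calls among 15 genes of MHC class I presentation, where single arrays left out gave 0 to 2 above and 0 to 3 below.

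Growth factor genes had calls in both directions. In the list of the insulin-like growth factor system and receptor ligands 4 of 18 lay below and 2 above at an unadjusted p under 0.05. The count below was 2 without COMBO replicate 1, bevacizumab replicate 2 or Vehicle replicate 1, and 1 without the muscle arrays or with the second-brightest probes. Igfbp6, which sequesters IGF-II, had 5.62 and 5.91 in COMBO, 6.34, 9.02 and 7.75 in PLX4720, 7.45, 7.54 and 6.92 in bevacizumab, and 6.49, 5.79 and 5.98 in Vehicle (contrast -3.15, standard error 0.77, unadjusted p = 0.0015). The means of both drugs alone were above Vehicle, and COMBO was near it. The keratinocyte factor Fgf7 (-2.43) and Igf2 (-1.31) are bounds with Vehicle undetected, and Egfr stood at -1.60 with 3 other probes between -1.57 and -0.65. Of 16 glucocorticoid-induced genes 5 lay below and 0 above, among them Per1 (-1.94; second probe -0.95) and Tsc22d3 (-1.72; other probes 0.60 and 0.50). That count was 1 without the muscle arrays, 2 without COMBO replicate 1, 3 without PLX4720 replicate 2, bevacizumab replicate 2 or Vehicle replicate 2, and 0 with the second-brightest probes. Nr1d2, a repressor of the circadian clock, was detected on the 3 PLX4720 arrays only (7.44, 7.14 and 6.58) and had 5.31 and 5.6 in COMBO, 5.07, 5.77 and 5.71 in bevacizumab, and 4.95, 4.93 and 4.86 in Vehicle. Detection in a single group leaves no limit for its contrast, so none is given. The genes below with the smallest p also included the LIM domain protein Fhl2 (-2.06), Arfgap3 of the Golgi (-1.90), Sqor, which oxidizes sulfide (-1.71), and Cox7b of cytochrome oxidase (-1.93), each a bound. Cyp1b1, a cytochrome P450 of stromal cells, stood at -3.18 and the glutathione transferase Gstm2 at -2.35, with 2 other Gstm2 probes at -2.26 and -1.18.

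Metabolic and stress genes gave few calls. Slc2a1, the glucose transporter GLUT1, had 9.08 and 9.21 in COMBO, 7.97, 8.25 and 8.22 in PLX4720, 10.62, 10.25 and 10.66 in bevacizumab, and 10.35, 10.65 and 10.99 in Vehicle (contrast 1.16, standard error 0.35), and was the 1 call among 17 genes of glycolysis, a count that was 4 without PLX4720 replicate 3 and 0 without the muscle arrays. The cholesterol enzymes Cyp51 (1.46) and Lss (1.16) lay above, and that list had 1 call without COMBO replicate 1 or the muscle arrays. In the unfolded protein response 4 of 19 lay below, among them Asns (-1.25, second probe -0.27), Herpud1 (-0.99, second probe -0.81) and Hsp90b1 (-0.96), and 1 above, the chaperone Calr (2.21). The count below was 1 without Vehicle replicate 2 or the muscle arrays, and 2 without COMBO replicate 1, COMBO replicate 2, PLX4720 replicate 2, bevacizumab replicate 2 or bevacizumab replicate 3. Of 24 cell cycle genes 3 lay above and 0 below, Cdkn2c (1.79; other probes 0.66 and 0.22), Tyms (1.23; other probes -0.40 and 0.40) and Plk1 (0.91), and the counts were 0 and 1 without the muscle arrays, 1 and 1 without COMBO replicate 1 or Vehicle replicate 2, and 5 and 0 without PLX4720 replicate 3. Skeletal muscle genes had a median of -1.0, which ran between -3.15 and 0.48 with single arrays left out, and 17 of 18 had a contrast under 0. Ttn was the muscle gene above (1.27), but 4 of its 5 other probes had a contrast under 0.

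Probes of 1 gene can disagree, and 3749 genes had 2 or more detected probes. Over all of them, 56.8% of 5284 other probes had the sign of the brightest probe. For genes above additivity at the methods' threshold the share was 53.6% (143 of 267 probes in 153 genes), and the other probes had a median contrast of 0.06 against 2.07 on the used probes. Below, 78.3% had the same sign (54 of 69 in 49 genes), with medians of -0.60 and -1.66. The share was thus higher below additivity than above it, where it was close to that of all genes, and the difference was not tested. Over all genes the other probes had a median contrast of -0.11, so that signs below 0 were the more common. Same-sign probes past an unadjusted p under 0.05 made up 21.3% above and 23.2% below, against 8.52% over all genes. With the opposite sign 7 passed above, 2 below and 207 over all genes. Other probes were dimmer, with a median level of 5.97 against 8.42 above and 5.63 against 7.07 below. Among other probes detected on all 11 arrays the share was 64.3% over all genes, 64.0% above (48 of 75) and 9 of 9 below. In that stratum 23 of 75 probes above (30.7%) also passed an unadjusted p under 0.05 with the same sign, and 2 with the opposite sign. Below, these counts were 4 and 0 of 9, and over all genes 161 (12.2%) and 55 of 1318. What sets probes of a gene apart was not tested.

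**Figure D5:**
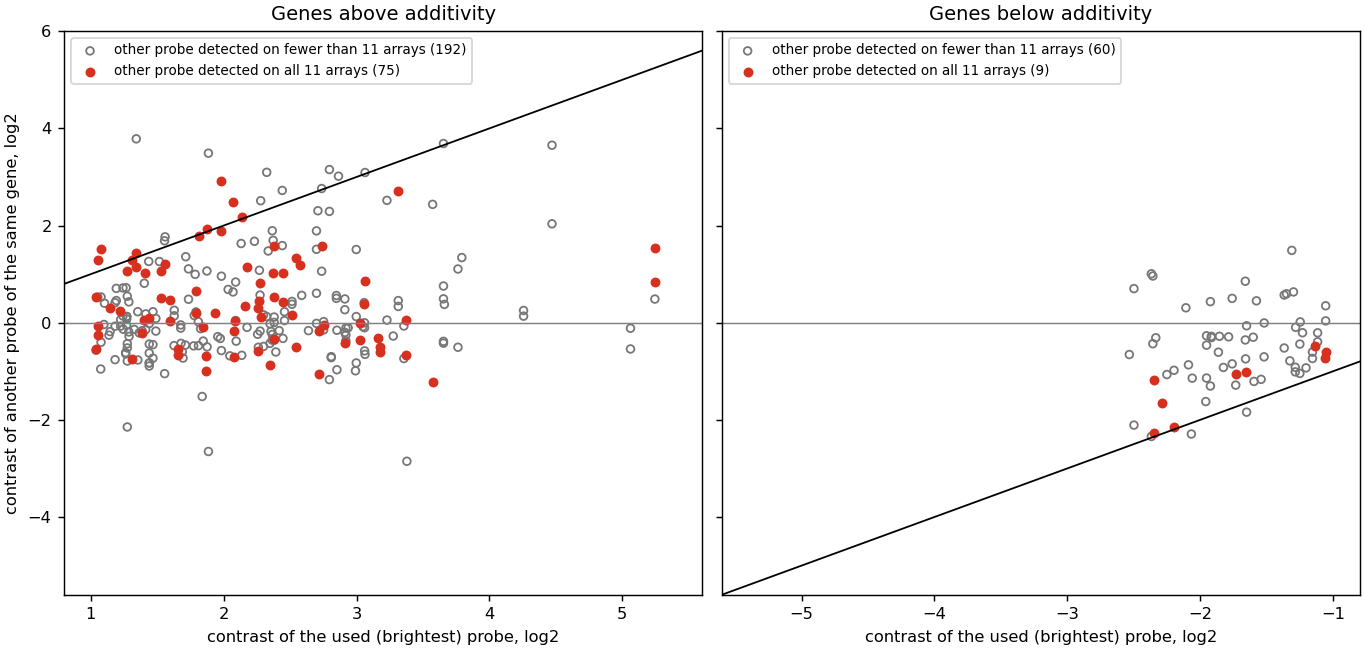
Contrast of another detected probe (vertical axis) against the contrast of the brightest probe of the same gene (horizontal axis), in log2 units, for genes past the methods' threshold above (left) and below (right) additivity, with the black line marking equality and red points for other probes detected on all 11 arrays. Left, many points lie near 0 whatever the used probe shows, and right, most lie below 0.

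All detected probes had the same sign in 728 genes above and 1139 below, and each probe passed an unadjusted p under 0.05 in 31 and 30 of them. Above, the best supported were Tbc1d9 (2.23 and 1.68), the splicing regulator Rbm10 (2.86 and 3.02), Arg1, Celf1 with 4 probes between 1.15 and 3.79, Rbpj, the DNA-binding partner of Notch (2.33 and 1.48), the poly(A) polymerase Tent2 (2.14 and 2.18), the corepressor Ctbp2 (1.55 and 1.69) and Synj2bp (1.82 and 1.79). Rbm10 had 8.15 and 8.18 in COMBO, 5.35, 7.05 and 5.88 in PLX4720, 9.01, 8.41 and 7.92 in bevacizumab, and 8.89, 9.80 and 9.01 in Vehicle, so that it shared the low PLX4720 arrays of the splicing factors. Below, they were Armc6 (-1.96, a bound, and -1.62), Ift27 of the cilium (-2.06 and -1.14), Itga11, the collagen receptor subunit of fibroblasts (-2.07 and -2.29), Col8a2, Antxr1, which binds collagen (-2.29 and -1.64), Serping1, the RNA Snhg16 (-1.54, a bound, and -1.17) and Prickle1 (-1.77 and -0.94). Itga11 had 7.16 and 7.71 in COMBO, 8.41, 9.45 and 8.75 in PLX4720, 8.61, 8.60 and 9.13 in bevacizumab, and 7.49, 7.83 and 9.11 in Vehicle, with COMBO below all arrays of either drug alone.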

How the data were processed

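Tumor RNA was read on 11 MouseWG-6 v2.0 bead arrays. The authors deposited 2 tables of signal intensity per probe, 1 as it left GenomeStudio 2011.01 and 1 after their own normalization, with a detection p-value for each probe in the deposited non-normalized table. Signals of the non-normalized table went through neqc of limma 3.58.1 (R 4.3.3, offset 16), and contrasts were taken on its log2 output. The normalized table served as an alternative. Kept were 16217 of 45281 probes, those with a single gene symbol and detection at p under 0.05 on any array. There were 10378 probes with no symbol and 18 with several. Symbols came from the platform annotation, of which 34807 of 34885 were found in a current gene table. The brightest probe stood for each gene.

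A linear model gave each group its own mean, and its spread was moderated across genes (7 residual degrees of freedom, 4.92 from the prior) and pooled over groups, which the 2 COMBO arrays alone would not estimate. P-values measure the spread between these arrays, whose number limits the precision. The procedure was checked on simulated data with independent noise and, for each gene, the same spread in every group. That check does not cover genes whose PLX4720 arrays spread more than the others, or effects shared by the genes of an array. Members, gene lists and tests were chosen with earlier results of these data known, and lists are given by counts and medians without a test. The genes named were those past an adjusted p under 0.05, the 12 in each direction with the smallest p past the methods' threshold, up to 4 called members of each described list by size, genes the study names, and 8 in each direction whose probes all departed one way, except where the text says otherwise. Where no array of a group detected a gene, its contrast is a bound or has none. Alternatives covered normalization, detection filter, probe choice, replicate block, array weights, moderation, offset, muscle signal and each array left out.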

Additional observations from a re-analysis of the deposited data

Results flagged for a closer look

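Gpat3 stands here because the effect of bevacizumab on it differed between tumors with and without PLX4720 by a test of that difference itself. The difference was 2.53 for COMBO minus PLX4720 and -0.74 for bevacizumab minus Vehicle, a contrast of 3.28 on the log2 scale (adjusted p = 0.00938, limma). All 3 PLX4720 arrays were lower than the other 8 arrays. A dimmer probe of the gene gave -0.27. Gpat3 did not pass an adjusted p under 0.05 without bevacizumab replicate 3 or Vehicle replicate 2, with housekeeping scaling or with the mean of probes.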

How the results depend on the processing

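The count at an adjusted p under 0.05, 1 as reported, was 28 without background correction, 9 with median scaling, 0 with housekeeping scaling, 2 without the detection filter, 16 over probes detected on all 11 arrays, 0 with the mean of probes, 0 with the second-brightest probe, 21 with array weights, 15 with trended and robust moderation, 18 with an offset of 50, 0 without the 3 arrays of highest muscle signal and 30 at an adjusted p under 0.1. With single arrays left out it ran between 0 (COMBO replicate 1, bevacizumab replicate 3 or Vehicle replicate 2) and 126 (PLX4720 replicate 2). The count at the methods' threshold, 476 as reported, was 265 without background correction, 247 over probes detected on all arrays, 156 with the second probe and 195 without the muscle arrays, and ran between 216 (without COMBO replicate 1) and 567 (without PLX4720 replicate 2), with 287 without Vehicle replicate 2. At an unadjusted p under 0.05, 1535 became 754, 475 and 900 under the same last 3 settings, and ran between 919 (without COMBO replicate 1) and 1704 (without PLX4720 replicate 3). Probe agreement was 64.3% over other probes detected on all arrays, a setting chosen after seeing the data. With muscle signal as a covariate on all 11 arrays, 9 proteoglycan and elastic fiber genes and 7 collagen-processing genes lay below at an unadjusted p under 0.05. Ribosomal proteins had 6 below, glucocorticoid-induced genes 5 below and splicing factors 10 above. The cause of these changes was not tested.

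Labels give the groups the same replicate numbers. Of 15 pairs of arrays with the same number 2 had deviations correlated above 0.1. Both were pairs of PLX4720 and COMBO (0.26 and 0.24), and the lowest of the 15 was -0.24. Deviations of the 2 COMBO arrays mirror each other, so these values cannot tell whether arrays of the same number share anything further. With the replicate block the counts were 13, 460 and 1491, where they had been 1, 476 and 1535.

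The naming rules picked 149 genes, not all of them described above. Of these 132 passed an unadjusted p under 0.05, and 25 values of 18 of the 132 turned their sign under other settings. Ttn stood at -1.57 without background correction, -1.84 with median scaling, -1.69 with housekeeping scaling, -1.71 with cyclic loess, -1.78 with an offset of 50, -0.34 with the mean of probes and -2.15 with the second probe. Eif5a stood at -0.058 over probes detected on all arrays, and Tgfbr2 at 0.27 with the mean of probes and 1.56 with the second probe. The second probe also gave -0.27 for Gpat3, -0.11 for Dusp4, -0.16 for Csnk2a1, 0.49 for Cxcl12, 0.44 for Pdgfra, 0.57 for Col3a1, -0.38 for Adamts1, -1.18 for Bmpr1a, 0.50 for Tsc22d3, -0.40 for Tyms, -0.60 for Eif4b, -0.54 for Hnrnpa2b1, -0.071 for Hnrnpa0, -0.38 for Psmc5 and -0.64 for Sbsn. With single arrays left out 0 of the 132 turned their sign, 68 of them passed in each such fit, and between 12 (PLX4720 replicate 1) and 47 (COMBO replicate 1) no longer passed. Of the 17 that had not passed, 6 crossed 0 with an array left out: H2-Aa ran between -1.27 and 4.47, Hspa1a between -3.32 and 0.32, Il1b between -0.19 and 0.79, Mmp9 between -1.08 and 0.26, Mmp10 between -0.38 and 0.48 and Tgfb1 between -0.04 and 2.03. Under other settings H2-Aa reached -1.39, Hspa1b (2.95 on the used probe) -1.27, Il1b -0.021, Il6ra 1.72 and Mmp10 -0.12.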
